A study of Bos taurus with 10 samples.

Results

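The interferon-stimulated effector genes described here are 44 genes that interferons switch on in most cells, chosen by exact match of their symbols to the deposited expression table. All 44 had 1 row each among the 21130 rows. The table holds FPKM values (fragments scaled to transcript length and to library size) for 10 libraries of RNA labelled as muscle of cattle 24 months old. By the genotype label, 7 libraries came from MSTN+/- animals, which carry 1 altered copy of MSTN, the gene of myostatin, a restraint on muscle growth, and 3 came from wild type animals. The labels give no treatment, no breed and no sex, and do not say whether each library is a separate animal. The p-values therefore measure the spread between libraries, which may be partly technical. That spread is pooled over both groups. For genes in which the 3 wild-type libraries differed most, standard errors and p-values understate the wild-type spread. Replicate numbers follow the order of the sample records and only name a library: MSTN+/- replicates 1 to 7 carry the titles LN010 to LN016, and wild-type replicates 1, 2 and 3 carry the titles LN018, LN019 and LN020.

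Type I interferons bind a receptor made of Ifnar1 and Ifnar2, whose kinases Jak1 and Tyk2 activate STAT proteins. With Irf9 these form the complex ISGF3, which switches on a large set of target genes. The targets sense viral RNA (Ifih1, Ddx58), degrade or sequester it (the OAS and IFIT families), block entry or release of virus particles (the IFITM proteins, Bst2), attach the ubiquitin-like protein Isg15 to other proteins, or modify proteins with ADP-ribose (the PARP genes). Many of them are also transcribed at a low basal level without infection. Pluripotent stem cells are known for a weak interferon response.

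The contents of the table went against the labelled species and tissue. There, 19415 rows, 43 of the 44 members among them, were described as genes of Mus musculus, and the row of the remaining member, Sp100, had no description. None of the 44 gene identifiers was in the RefSeq gene table of cattle (0 of 44). Of 12 transcripts of muscle fibres, 9 reached 1 FPKM in at least 1 library, and their sum was 24.3 to 53.2 FPKM under the MSTN+/- label and 27.9, 163 and 134 FPKM across wild-type replicates 1, 2 and 3. Ckm, encoding creatine kinase, ranged from 0.13 to 1.07 FPKM over all 10 libraries, and the light chain gene Mylpf made most of the sum in wild-type replicates 2 and 3, at 155 and 125 FPKM. Other muscle transcripts were higher under the MSTN+/- label. The myosin gene Myh2 was at 5.73 to 15.3 FPKM there, against 0.14, 0.02 and 0 FPKM across the wild-type libraries (limma adjusted p = 4.42e-06). Of the 12, Myh2, Myh1 and Tnni2 passed a limma adjusted p under 0.05 as higher and 0 as lower. A further 3 missed that threshold and 6 were not tested. Wild-type replicate 1 stood apart from the other wild-type libraries. Across genes, which are not independent replicates, wild-type replicates 2 and 3 correlated at r = 0.975, and replicate 1 correlated with them at 0.751 and 0.773. The summed level of 12 pluripotency markers was 32.2, 2834 and 3281 FPKM across wild-type replicates 1, 2 and 3, and 1261 to 2100 FPKM under the MSTN+/- label. Members of that list differed: Pou5f1, Sox2 and Klf4 summed to 1193 to 1821 FPKM under the MSTN+/- label and to 30.7, 666 and 892 FPKM across the wild-type libraries, and the other 9 to 26.2 to 453 FPKM against 1.44, 2168 and 2389 FPKM. The summed level of 12 fibroblast markers was 7576, 622 and 528 FPKM across the wild-type libraries and 3371 to 6503 FPKM under the MSTN+/- label. Members of this list differed too. In wild-type replicate 1, Col1a1 was at 3017 FPKM, above the 969 to 2329 FPKM of the MSTN+/- libraries. Dcn and Lum were at 24.3 and 28.8 FPKM there, below the 169 to 324 and 45.2 to 99.9 FPKM of the MSTN+/- libraries. Groups are therefore named by their labels only, the wild-type libraries are given one by one, and no difference is attributed to MSTN or to cattle muscle. In bulk RNA, fewer cells of a type and less RNA per cell cannot be told apart.

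Nearly every member was higher in the libraries labelled MSTN+/-. Of the 44 members, 42 were higher at an adjusted p under 0.05 in limma's test of log2(FPKM + 1), where 31.8% of the 14047 genes tested were higher. The count was also 42 after rescaling to TPM, where 27.7% of all genes were higher. None was lower at the adjusted threshold, where 12.8% of all genes were lower. At an unadjusted limma p under 0.05, 0 members were lower, against 2427 of the 14047 genes tested. All 44 log2 changes were positive, with a median of 2.87 against 0.17 over all genes. For 40 members every MSTN+/- library exceeded every wild-type library, while 25.2% of all genes showed that pattern. The exceptions were Ddx58, Trim25, Oas1g and Ifi27. All 44 members passed the low-value filter through the MSTN+/- libraries alone, since each was above 1 FPKM in all 7, and 17 also reached 1 FPKM in all 3 wild-type libraries.

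The 3 wild-type libraries held different levels of these genes. The median member was at 29.3 to 42.8 FPKM under the MSTN+/- label, and at 0.74, 15.7 and 2.86 FPKM across wild-type replicates 1, 2 and 3. Relative to the median MSTN+/- library of the same gene, the median member stood at 2.04% in wild-type replicate 1, 21.9% in replicate 2 and 6.53% in replicate 3. Over all genes tested the same medians were 80.0%, 88.6% and 87.3%. In rank, the median member stood at percentile 79.7 to 86.8 of the genes tested under the MSTN+/- label and at percentile 14.7, 65.4 and 28.6 in wild-type replicates 1, 2 and 3. The order replicate 1, then 3, then 2 from low to high held for 35 members (79.5%), against 23.2% of all genes tested. Wild-type replicate 1, lowest in most members, had the highest fibroblast marker sum and the lowest pluripotency marker sum. From low to high, the wild-type libraries ranked 1, 2, 3 by the pluripotency marker sum and 3, 2, 1 by the fibroblast marker sum. The part of cell composition in the differences was not tested.

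**Figure D1:**
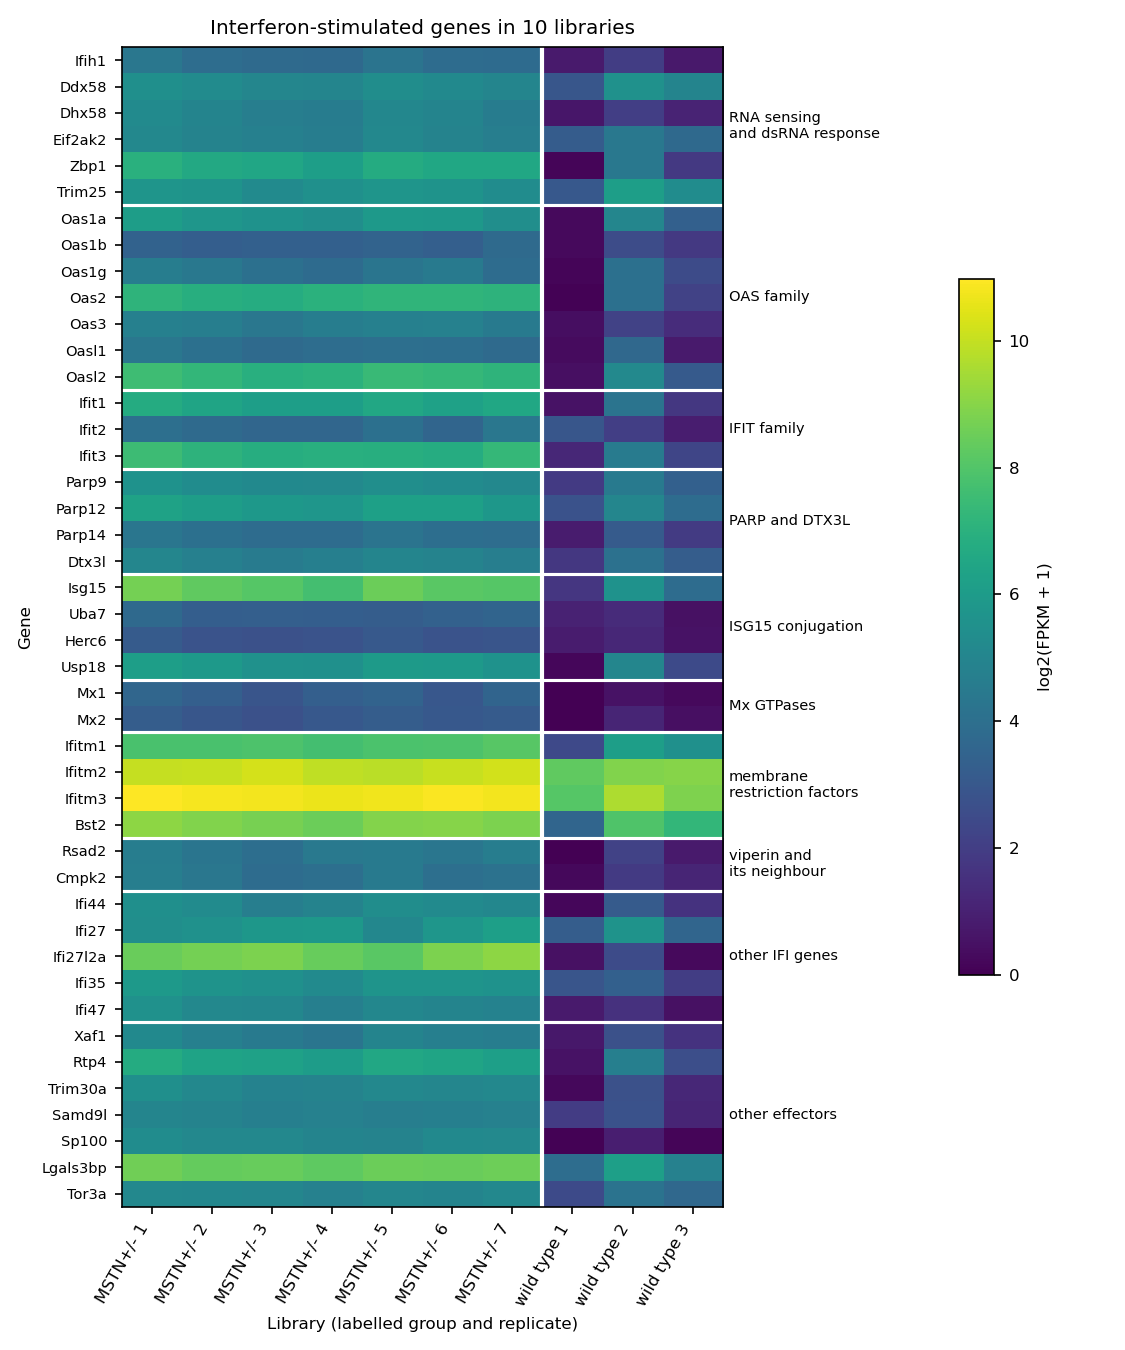
Heat map of log2(FPKM + 1) for the 44 genes (rows, by functional class) in the 7 MSTN+/- and 3 wild-type libraries (columns). The 7 MSTN+/- columns look alike, and wild type 1 is darkest in most rows, with a median member at 0.74 FPKM.

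The RNA sensors split into genes low in every wild-type library and genes at or near their MSTN+/- level in 2 of them. Ifih1 (MDA5) and Dhx58 (LGP2), which bind long double-stranded RNA, belonged to the first kind. Ifih1 was at 12.5, 13.9 and 19.6 FPKM (lowest, median and highest of 7) under the MSTN+/- label and at 0.74, 3.04 and 0.68 FPKM across wild-type replicates 1, 2 and 3. Dhx58 was at 23.0, 29.5 and 37.3 FPKM against 0.57, 3.05 and 1.11 FPKM. Their log2 changes were 2.78 ± 0.26 and 3.62 ± 0.26 (SE, limma adjusted p of 2.71e-05 and 4.59e-06), and neither gene overlapped between groups. Zbp1, a sensor of Z-form nucleic acid that can start cell death, spanned the widest range of the class. It was at 69.3, 92.6 and 125 FPKM under the MSTN+/- label and at 0.12, 20.3 and 2.49 FPKM across the wild-type libraries, a change of 4.45 ± 0.67 on the log2 scale (SE, limma adjusted p = 5.71e-04).

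Ddx58 (RIG-I), the sensor of RNA ends bearing triphosphate, was of the second kind. It was at 30.4, 36.5 and 43.4 FPKM under the MSTN+/- label and at 6.72, 45.3 and 29.6 FPKM across wild-type replicates 1, 2 and 3. Replicate 2 exceeded every MSTN+/- library, and replicate 3 lay just below the lowest. Trim25, a ubiquitin ligase that acts on RIG-I, was also highest in wild-type replicate 2. It was at 37.5, 48.5 and 52.5 FPKM under the MSTN+/- label and at 7.17, 70.6 and 39.8 FPKM across the wild-type libraries. For Trim25, replicate 3 lay inside the MSTN+/- range. Neither gene passed the threshold, with log2 changes of 0.73 ± 0.43 and 0.70 ± 0.51 (SE, limma adjusted p of 0.190 and 0.280). Without wild-type replicate 1 these values were -0.03 and -0.21 (limma adjusted p of 0.871 and 0.353). Without wild-type replicate 2 they were 1.26 and 1.36, past the threshold (0.0412 and 0.0499). Against wild-type replicate 1 alone they were 2.25 and 2.52, in a fit with 1 library on that side and so no wild-type spread. Eif2ak2 (PKR), the kinase that halts translation on double-stranded RNA, was between the 2 kinds, at 24.4 to 34.0 FPKM against 8.22, 20.1 and 12.3 FPKM, a change of 1.11 on the log2 scale (limma adjusted p = 0.00296).

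Active OAS enzymes make the short oligoadenylates that activate RNase L, which not every gene of the family encodes. All 7 members listed here, OAS-like genes among them, were higher, with log2 changes of 1.89 to 4.94. Oas2 had the largest. It was at 109, 134 and 143 FPKM under the MSTN+/- label and at 0.05, 15.6 and 3.42 FPKM across wild-type replicates 1, 2 and 3, a change of 4.94 ± 0.62 on the log2 scale (SE, limma adjusted p = 1.81e-04). Oasl2, an OAS-like gene with a ubiquitin-like tail, was the most abundant at 120, 152 and 191 FPKM against 0.38, 35.3 and 7.71 FPKM (log2 change 4.32 ± 0.74 SE, limma adjusted p = 0.00120). Both genes were clear of every wild-type library. Oas1a was at 41.9, 53.0 and 67.1 FPKM against 0.23, 31.6 and 9.19 FPKM, with a change of 2.83 ± 0.75 on the log2 scale (SE, limma adjusted p = 0.0122) that was 1.53 without wild-type replicate 1.

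Members of this family differed in how much was left in wild-type replicate 2. Oas1g and Oasl1 kept 85.7% and 84.5% of their MSTN+/- median there, and Oas2 and Oas3 kept 11.6% and 14.0%. In wild-type replicate 3 Oasl1 stood at 5.20%, so it differed 16.2-fold between 2 libraries whose overall correlation was 0.975. Oas1g, which overlapped between groups at 13.1 to 24.0 FPKM against 0.10, 15.8 and 4.74 FPKM, had a change of 1.97 on the log2 scale (limma adjusted p = 0.0285). That call was lost without MSTN+/- replicate 1 (0.0506) and without wild-type replicate 3 (0.0641), and the change was 0.92 without wild-type replicate 1. Oas1a and Oas1g are near copies, and their reads may have been split between them.

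The IFIT proteins bind foreign RNA ends and block its translation, and 3 of 3 were higher. Ifit3 was at 110, 119 and 182 FPKM under the MSTN+/- label and at 1.33, 22.7 and 3.91 FPKM across wild-type replicates 1, 2 and 3 (log2 change 4.35 ± 0.54 SE, limma adjusted p = 1.82e-04). Ifit1 was at 69.6, 83.0 and 107 FPKM against 0.45, 17.9 and 2.40 FPKM (log2 change 4.23 ± 0.59 SE, limma adjusted p = 3.67e-04). Both followed the common order of the wild-type libraries. Ifit2 did not, at 11.0, 13.1 and 19.4 FPKM against 6.63, 3.07 and 0.85 FPKM. It was the only member highest in wild-type replicate 1 among the 3 wild-type libraries, at 50.8% of its MSTN+/- median. Its log2 change of 1.92 (limma adjusted p = 0.00191) was 0.94 against that library alone. Ifit3 has a near copy, Ifit3b, so its reads may be split as well.

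Among classes of 3 or more genes, the PARP group was the most even in size of change. Parp9 and its partner Dtx3l, a ubiquitin ligase that works in a complex with it, and the ADP-ribosyltransferase genes Parp12 and Parp14 were all higher, with log2 changes of 1.78 to 2.17. Parp12 was at 53.2, 67.0 and 79.5 FPKM under the MSTN+/- label and at 5.72, 31.4 and 13.7 FPKM across wild-type replicates 1, 2 and 3 (log2 change 2.17 ± 0.37 SE, limma adjusted p = 0.00131). Parp9 was at 33.7, 38.6 and 47.9 FPKM against 2.64, 21.5 and 9.30 FPKM (log2 change 2.07 ± 0.42 SE, limma adjusted p = 0.00312). All 4 were low in wild-type replicate 1, at 5.35% to 9.24% of their MSTN+/- median, and kept 46.9% to 61.7% in replicate 2 and 18.6% to 31.5% in replicate 3. Among the wild-type libraries, replicate 2 was highest and replicate 1 lowest in 4 of 4.

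The ISG15 system was higher at every step measured: the modifier itself, its activating enzyme Uba7, its ligase Herc6 and the protease Usp18, which removes it and restrains the interferon receptor. Isg15 was at 209, 286 and 410 FPKM under the MSTN+/- label and at 2.37, 47.1 and 13.7 FPKM across wild-type replicates 1, 2 and 3 (log2 change 4.48 ± 0.61 SE, limma adjusted p = 3.17e-04). Usp18 was at 44.6, 57.7 and 70.3 FPKM against 0.16, 31.7 and 4.50 FPKM (log2 change 3.22 ± 0.75 SE, limma adjusted p = 0.00661; 2.05 when wild-type replicate 1 was left out). In wild-type replicate 2 Usp18 kept 54.9% of its MSTN+/- median and Isg15 16.5%. The enzymes Uba7 and Herc6 were much less abundant than the modifier, at 8.51 to 12.7 and 5.69 to 7.81 FPKM, and at 1.55 FPKM or less in every wild-type library. The conjugating enzyme of the system, Ube2l6, is outside the 44 and was also higher, at 57.8 to 73.6 FPKM against 5.81, 53.3 and 29.3 FPKM (limma adjusted p = 0.0253).

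The Mx GTPases, which trap viral nucleocapsids, were the least abundant class and among the most nearly silent in the wild-type libraries. Mx1 was at 6.48, 9.03 and 11.4 FPKM under the MSTN+/- label and at 0.03, 0.46 and 0.20 FPKM across wild-type replicates 1, 2 and 3 (log2 change 3.02 ± 0.19 SE, limma adjusted p = 1.43e-06). Mx2 was at 5.64, 7.17 and 8.49 FPKM against a listed 0, 1.23 and 0.35 FPKM (log2 change 2.52 ± 0.22 SE, limma adjusted p = 1.72e-05). Viperin, encoded by Rsad2, converts a nucleotide into a chain terminator of viral RNA, and the nucleotide kinase gene Cmpk2 lies beside it. Rsad2 was at 14.6, 20.7 and 23.9 FPKM against 0.02, 3.42 and 0.73 FPKM (log2 change 3.41 ± 0.36 SE, limma adjusted p = 5.80e-05). Cmpk2 was at 13.7, 16.6 and 25.1 FPKM against 0.17, 2.64 and 1.20 FPKM (log2 change 3.15 ± 0.31 SE, limma adjusted p = 3.41e-05). In these 4 genes no wild-type library exceeded 17.2% of the MSTN+/- median.

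Genes of membrane restriction factors stood at the other end of the range of levels. Ifitm3, which blocks fusion of virus with endosomes, was at 1609, 1778 and 2010 FPKM under the MSTN+/- label and at 271, 792 and 464 FPKM across wild-type replicates 1, 2 and 3 (log2 change 1.95 ± 0.25 SE, limma adjusted p = 2.26e-04). It ranked between 11 and 17 among all rows of the table under the MSTN+/- label, and at 207, 78 and 130 in the wild-type libraries. Ifitm2 was at 918, 1049 and 1224 FPKM against 312, 468 and 511 FPKM (log2 change 1.32 ± 0.16 SE, limma adjusted p = 1.35e-04). It was the only member higher in wild-type replicate 3 than in replicate 2. Bst2 (tetherin), which holds budding particles at the cell surface, was at 366 to 554 FPKM against 11.1, 245 and 155 FPKM. Its log2 change was 2.58 (limma adjusted p = 0.0164), 1.24 without wild-type replicate 1. Ifitm1 was at 208 to 280 FPKM against 4.33, 70.4 and 45.0 FPKM (log2 change 3.19, limma adjusted p = 0.00253; 2.05 when wild-type replicate 1 was left out).

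**Figure D2:**
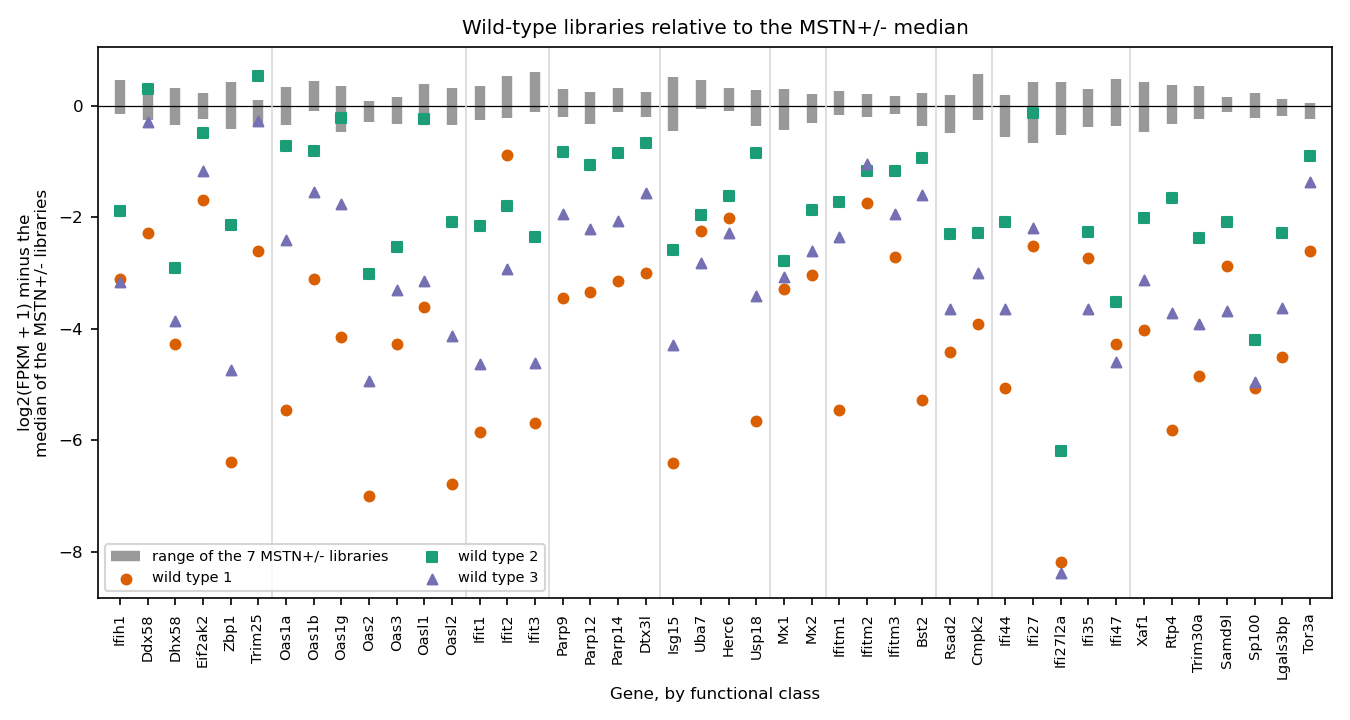
Level of each gene in the 3 wild-type libraries as log2(FPKM + 1) minus the median of the 7 MSTN+/- libraries (vertical axis), by functional class; grey bars are the range of the MSTN+/- libraries. Ddx58 and Trim25 pass the grey bar in wild type 2, while Ifi27l2a lies lowest in all 3.

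Ifi27l2a and Ifi27, small proteins of the ISG12 family, gave the most and one of the least separated patterns of the 44. Ifi27l2a was at 287, 411 and 556 FPKM under the MSTN+/- label and at 0.42, 4.61 and 0.23 FPKM across wild-type replicates 1, 2 and 3. Its log2 change of 7.55 ± 0.41 (SE, limma adjusted p = 6.38e-07) was the largest of the 44. Ifi27 was at 33.3, 53.0 and 72.0 FPKM against 8.46, 48.6 and 10.9 FPKM, and wild-type replicate 2 lay inside the MSTN+/- range. Its log2 change was 1.52 ± 0.44 (SE, limma adjusted p = 0.0192), and the call was lost without wild-type replicate 3 (0.0960). The other IFI genes were higher too. Ifi44, Ifi35 and the GTPase gene Ifi47 were at 24.8 to 42.7, 37.3 to 60.2 and 25.3 to 46.0 FPKM under the MSTN+/- label and at 9.38 FPKM or less in every wild-type library, with changes of 3.50, 2.86 and 4.10 on the log2 scale (limma adjusted p of 3.37e-04, 1.72e-05 and 8.24e-07).

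The remaining effectors, 7 of 7 higher, ranged from near silence in the wild-type libraries to partial retention. Sp100, a component of nuclear bodies that represses viral genomes, was at 28.8 to 39.5 FPKM against 0.04, 0.89 and 0.11 FPKM (log2 change 4.73, limma adjusted p = 6.50e-08). Lgals3bp, a secreted glycoprotein that binds galectins, was at 307, 348 and 380 FPKM against 14.3, 71.3 and 27.2 FPKM (log2 change 3.47 ± 0.36 SE, limma adjusted p = 4.79e-05). Rtp4, a chaperone of membrane receptors, was at 65.2, 81.7 and 107 FPKM against 0.47, 25.3 and 5.29 FPKM (log2 change 3.74 ± 0.65 SE, limma adjusted p = 0.00137). These 3 did not overlap between groups. Tor3a, an ATPase of the endoplasmic reticulum, was the most retained, at 27.4, 32.3 and 33.6 FPKM against 4.47, 16.9 and 11.99 FPKM (log2 change 1.59 ± 0.28 SE, limma adjusted p = 0.00160). Xaf1, Trim30a and Samd9l were at 18.5 to 43.0 FPKM under the MSTN+/- label and at 5.70 FPKM or less in every wild-type library, with log2 changes of 2.88 to 3.69.

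Wild-type replicates 2 and 3 differed in these genes although they were alike overall. Of the members, 43 were higher in replicate 2 than in replicate 3, with a median ratio of 3.39, where 52.2% of all genes tested were higher in replicate 2 and the median ratio was 1.01. Among genes at 1 FPKM or more in replicate 2, 32 of 42 members (76.2%) differed at least 2-fold in that direction, against 618 of 12159 genes (5.08%). That filter rests on replicate 2, the library where the members were higher, which favours this direction. In replicate 3, 33 members reached 1 FPKM, so some entered through replicate 2 alone. The largest ratios were 20.04 for Ifi27l2a, 16.2 for Oasl1 and 8.16 for Zbp1. Each side is 1 library, so the difference has no replicate check. The pluripotency and fibroblast marker sums of these 2 libraries were 2834 and 3281 FPKM, and 622 and 528 FPKM. Of the leukocyte markers, Ptprc, the pan-leukocyte gene, was listed at 0 in both, and the sum of all 10 was 66.5 and 79.6 FPKM, of which Laptm5 made 54.6 and 68.9 FPKM. The part of cell composition in this difference was not tested.

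Interferon genes themselves were barely detected. Of 21 ligand genes sought, 8 had a row, 1 of these was listed at 0 in every library, and none exceeded 0.25 FPKM in any library. Ifnb1, the first type I interferon made on infection, was at 0 to 0.14 FPKM under the MSTN+/- label and at 0, 0 and 0.13 FPKM across wild-type replicates 1, 2 and 3. Of the 10 leukocyte markers, Ptprc was at 0.04 FPKM or less in all 10 libraries. The summed level of that list was 35.2 to 67.5 FPKM under the MSTN+/- label and 14.7, 66.5 and 79.6 FPKM across the wild-type libraries, most of it from Laptm5 and Cd68. Of the markers of plasmacytoid dendritic cells, the main interferon producers of blood, 4 of 5 had a row. Ccr9 was at 0.09 FPKM or less and Spib at 1.14 FPKM or less in every library, and nearly all of the list's summed level was Tcf4, which many other cells also express. That summed level was 25.1 to 35.7 FPKM under the MSTN+/- label and 25.3, 8.55 and 9.20 FPKM across the wild-type libraries. Endothelial markers summed to 22.1 to 33.7 FPKM under the MSTN+/- label and to 9.08, 51.5 and 47.7 FPKM across the wild-type libraries. The members of that list went in different directions. Tek was higher, at 15.8 to 23.6 FPKM against 0.66, 2.24 and 1.37 FPKM (limma adjusted p = 1.21e-06). Egfl7 was lower, with a log2 change of -2.03 (limma adjusted p = 0.00404). Pecam1 was at 0.09 to 5.75 FPKM against 0.06, 26.4 and 24.3 FPKM and missed the threshold (limma adjusted p = 0.137).

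Receptor genes did not follow the effector genes. Of 5 tested, 3 were higher and 2 missed the threshold, where 31.8% of all genes were higher. Ifnar1 was at 14.99, 16.2 and 17.7 FPKM under the MSTN+/- label and at 16.8, 17.4 and 14.1 FPKM across wild-type replicates 1, 2 and 3, a change of 0.01 on the log2 scale (limma adjusted p = 0.944). Its partner Ifnar2 was at 33.1, 34.0 and 47.2 FPKM against 25.5, 10.4 and 7.56 FPKM (log2 change 1.45 ± 0.29 SE, limma adjusted p = 0.00274). Wild-type replicate 1 thus had the highest Ifnar2 of the 3, and against it alone the change was 0.50. The interferon gamma receptor gene Ifngr1 was at 15.8, 17.0 and 22.5 FPKM against 13.1, 3.73 and 2.37 FPKM, and Il10rb, shared by the interferon lambda and interleukin 10 receptors, at 11.2, 13.4 and 14.5 FPKM against 12.7, 2.46 and 1.12 FPKM. Their changes of 1.64 and 1.61 on the log2 scale (limma adjusted p of 0.00429 and 0.0142) were 0.43 and 0.05 against wild-type replicate 1 alone. The call of Il10rb was lost without wild-type replicate 2. It was also lost without wild-type replicate 3, where its change was 1.04 (limma adjusted p = 0.0707). In Ifnar2, Ifngr1 and Il10rb, wild-type replicate 1 was the highest of the wild-type libraries. The same held for Ifngr2, which missed the threshold (limma adjusted p = 0.0836). It was at 22.2 to 32.2 FPKM against 36.7, 13.3 and 6.39 FPKM. In 36 of the 44 effector genes wild-type replicate 1 was the lowest of the wild-type libraries. The share of all genes with either pattern was not computed.

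Subunits of ISGF3 changed less than most of its targets. Stat2 was at 34.3, 37.2 and 48.4 FPKM under the MSTN+/- label and at 3.66, 19.5 and 10.2 FPKM across wild-type replicates 1, 2 and 3 (log2 change 1.95 ± 0.35 SE, limma adjusted p = 0.00157). Irf9 was at 35.1, 41.9 and 48.9 FPKM against 6.72, 16.9 and 12.2 FPKM (log2 change 1.82 ± 0.22 SE, limma adjusted p = 1.30e-04). Both were lowest in wild-type replicate 1 and, of the wild-type libraries, highest in replicate 2, the order of most effectors. The kinase gene Jak1 was at 33.8 to 39.3 FPKM against 59.9, 19.8 and 15.6 FPKM and did not pass the threshold (limma adjusted p = 0.306).

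Among the interferon regulatory factors, 4 of 4 tested were higher, beside 31.8% of all genes. Irf1 changed least of the 4, at 19.7 to 25.5 FPKM under the MSTN+/- label and 10.6, 18.25 and 16.3 FPKM across wild-type replicates 1, 2 and 3. Its log2 change was 0.51 (limma adjusted p = 0.0242), and the call was lost under median-of-ratios scaling and with library weights. Irf7, an interferon-induced factor that amplifies interferon production, was at 148, 204 and 267 FPKM under the MSTN+/- label and at 0.88, 29.3 and 5.46 FPKM across wild-type replicates 1, 2 and 3. Its log2 change was 4.82 ± 0.63 (SE, limma adjusted p = 2.43e-04), against 0.60 ± 0.11 for Irf3 (SE, limma adjusted p = 0.00241), the factor that acts before induction, at 19.9 to 24.6 FPKM against 16.9, 12.7 and 12.8 FPKM. Irf2 was at 12.7 to 14.6 FPKM against 7.79, 1.57 and 0.60 FPKM (log2 change 2.15, limma adjusted p = 0.00191; 0.74 with wild-type replicate 1 as the sole reference). Sensing adaptors and kinases had 8 of 9 tested higher, beside the same 31.8% of all genes. Of these, Ticam1 (log2 change 0.96, limma adjusted p = 0.0380) lost its call in 14 of 19 alternatives, among them each that left out 1 MSTN+/- library. Against wild-type replicate 1 alone, Ticam1 and Tmem173 were at -0.15 and -0.08, and Traf3 and Myd88 at 0.29 and 0.57. The call of Tmem173 was lost without wild-type replicate 2 and without replicate 3. Mavs, the adaptor of both RNA helicase sensors, was at 28.1, 31.7 and 39.5 FPKM against 10.4, 11.8 and 8.81 FPKM (log2 change 1.54 ± 0.12 SE, limma adjusted p = 9.73e-06). Tlr3 was at 6.20 to 8.74 FPKM against 0.80, 1.01 and 0.23 FPKM, and Ikbke at 7.87 to 11.9 FPKM against 3.31, 4.17 and 1.14 FPKM, with changes of 2.30 and 1.61 on the log2 scale (limma adjusted p of 5.99e-06 and 6.13e-04). The exception was the kinase gene Tbk1, at 9.69 to 13.1 FPKM against 10.1, 14.5 and 12.6 FPKM (limma adjusted p = 0.389).

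Of 7 negative regulators tested, Socs3 and Ptpn1 were higher and 5 missed the threshold, a share near the 31.8% of all genes. Socs3 was at 70.6 to 102 FPKM under the MSTN+/- label and at 21.3, 47.5 and 51.0 FPKM across wild-type replicates 1, 2 and 3 (log2 change 1.11, limma adjusted p = 0.00487). Ptpn2, a phosphatase that acts on the JAK kinases, was at 10.7 to 18.0 FPKM against 13.0, 27.6 and 27.2 FPKM, with a change of -0.64 on the log2 scale (limma adjusted p = 0.0522). Ptpn2 passed as lower under median-of-ratios, TPM and quantile scaling and without wild-type replicate 1 (-0.98, limma adjusted p = 6.33e-04). Its change was 0.04 against wild-type replicate 1 alone. Of 32 further interferon-stimulated genes outside the 44, 27 were higher and 5 did not pass, with a median log2 change of 1.76. The 3 with the smallest p were Slfn5, Sp110 and Slfn8, with changes of 3.41, 3.22 and 2.74 on the log2 scale (limma adjusted p of 9.04e-08, 2.57e-07 and 1.85e-06). Over all 7 lists, 48 of 63 tested genes were higher and none lower in limma, and 1 was lower at an unadjusted p under 0.05.

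**Figure D3:**
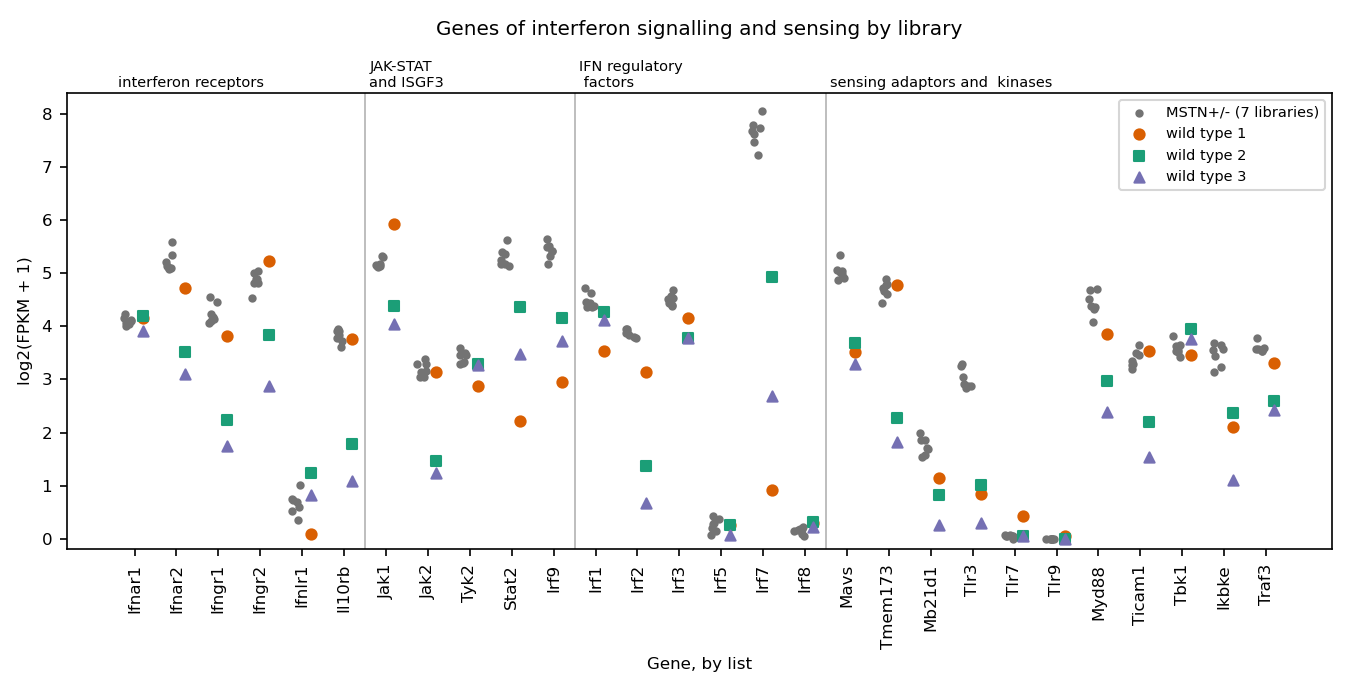
Level of 28 genes of interferon signalling and sensing as log2(FPKM + 1), with grey points for the 7 MSTN+/- libraries and coloured symbols for the 3 wild-type libraries. Wild type 1 lies near or above the grey points for Ifnar1, Ifngr2, Il10rb and Jak1, and far below them for Stat2, Irf9 and Irf7.

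Within the 7 MSTN+/- libraries the members varied by small amounts. Their coefficient of variation had a median of 15.3% and ran from 6.87% for Samd9l to 24.3% for Ifi27, beside a median of 13.2% for all genes tested. Much of this spread was shared. Of the 44 members, 33 were highest in MSTN+/- replicate 1, and 40 were above their own mean there, by a median of 0.28 on the log2 scale. In replicate 5, 35 were above their own mean, by a median of 0.15. In replicates 3 and 4 only 7 and 4 members were above it, with medians of -0.16 and -0.19. For all genes tested the median deviation of these 4 libraries lay between -0.02 and 0.05. The share of all genes highest in a library, or above their own mean in it, was not computed, so these counts have no background. The pluripotency marker sum ran opposite to this pattern: it was lowest in replicates 1 and 5, at 1261 and 1360 FPKM, and highest in replicate 4, at 2100 FPKM. The fibroblast marker sum was 5686 and 5330 FPKM in replicates 1 and 5, and lowest in replicate 4, at 3371 FPKM. The highest sum, 6503 FPKM, was in replicate 7, where 18 members were above their own mean. The part of these markers in the shared variation was not tested.

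**Figure D4:**
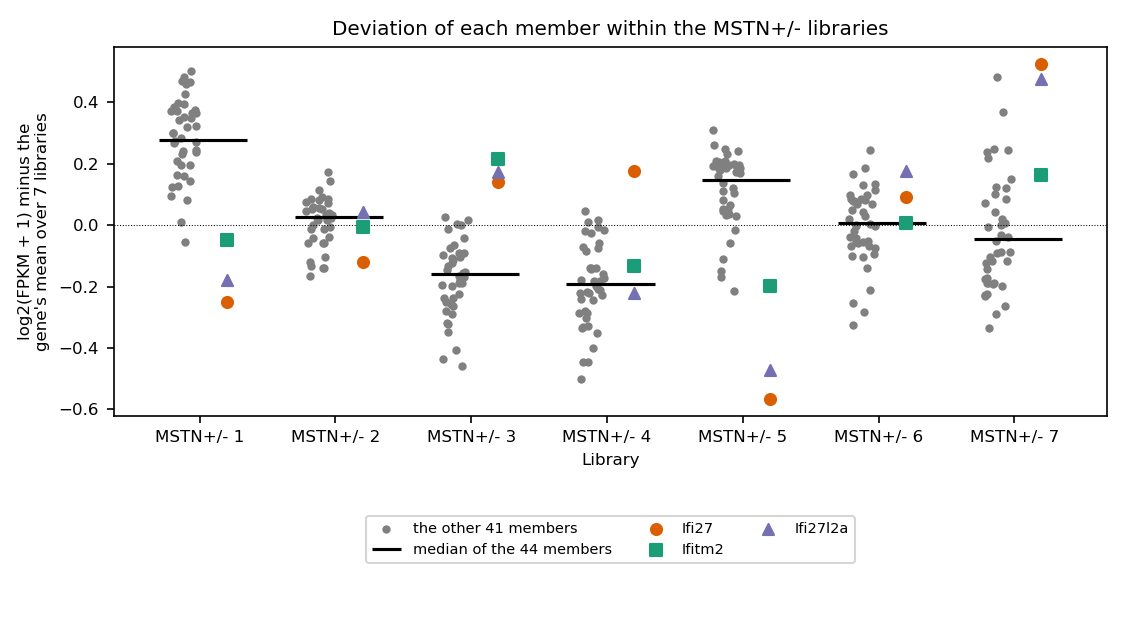
Deviation of log2(FPKM + 1) from the mean of the gene over the 7 MSTN+/- libraries, 1 point per gene and library; the bar is the median of the 44 genes. The bar is highest in MSTN+/- 1, at 0.28, and lowest in MSTN+/- 4, at -0.19, while Ifi27 is lowest in MSTN+/- 5.

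Over the 946 pairs of members, the median of Pearson's r across these 7 libraries was 0.57. It was 0.03 over the 98652081 pairs of all genes tested. An r above 0.8 was reached by 27.4% of member pairs and 3.83% of all pairs. These values are descriptions and carry no p, since all pairs share the same 7 libraries and their composition. Without MSTN+/- replicate 1 the median was 0.41 and 16.6% of pairs were above 0.8, against 5.41% of all pairs. Leaving out any other library gave a median of 0.54 to 0.70. The RNA sensing genes and the PARP group formed the tightest block, with a median r of 0.87 within the first, 0.89 within the second and 0.90 between them. The OAS family tied to both, with medians of 0.79 to the sensors and 0.80 to the PARP group, and so did the ISG15 genes, at 0.80 and 0.85. Within the OAS family the median was 0.71, and 4 of its 21 pairs were below 0. The IFIT genes had a median of 0.76 among themselves and 0.77 with the Mx genes. With the OAS, PARP and RNA sensing genes their medians were 0.39 to 0.43. Of single pairs, Oas1a and Dhx58 reached 0.99, and so did Parp14 and Ifih1.

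Some members went against the rest. Ifi27, Ifitm2 and Ifi27l2a had median correlations of -0.57, -0.32 and -0.30 with the other 43, and were tied to one another, with r of 0.85 between Ifi27 and Ifi27l2a and 0.88 between Ifitm2 and Ifi27l2a. All 3 were lowest in MSTN+/- replicate 5, where most members were above their mean. The lowest r of any pair, -0.90, was that of Ifi27 with Eif2ak2. Oas1b and Ifit2 formed another pair apart, at 0.88, with Oas1b at a median of 0.08 with all other members. Mx1, Mx2 and Rsad2 were tied to one another, with Mx2 and Rsad2 at 0.93.

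**Figure D5:**
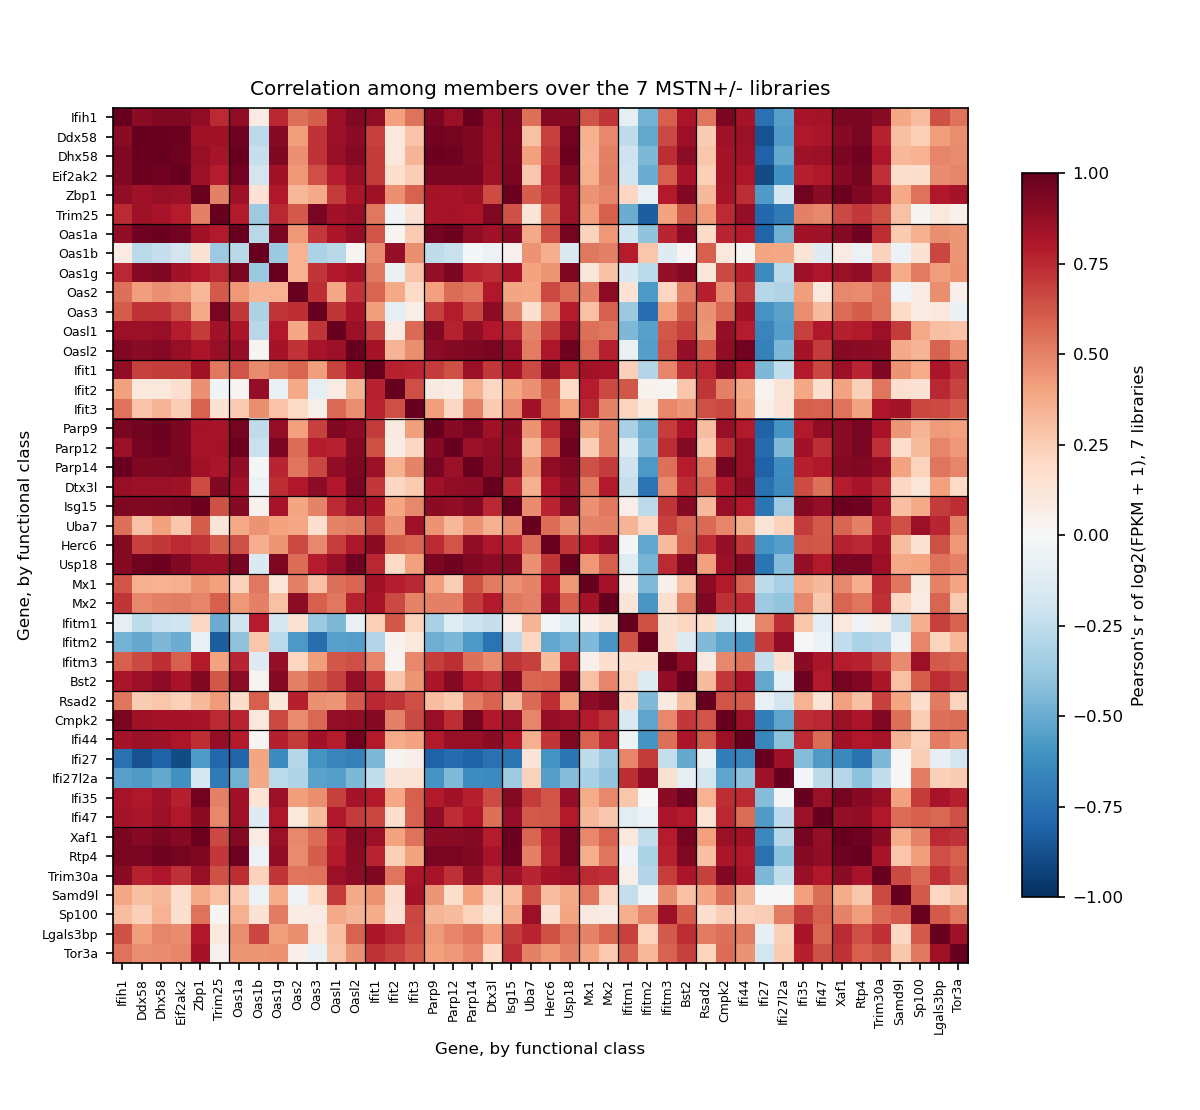
Pearson's r between all pairs of the 44 genes over the 7 MSTN+/- libraries, by functional class (black lines). The block of RNA sensing genes and that of the PARP genes are red, at medians of 0.87 and 0.89, and the rows of Ifi27, Ifi27l2a and Ifitm2 are mostly blue.

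For 10 pairs of genes chosen for their function or position, the relation over the 7 libraries was tested with exact two-sided permutation over all pairings of libraries, adjusted over the 10 pairs. The pairs were chosen with earlier results of these data known. Their p-values are therefore not those of pairs picked blind to the data, and the adjustment does not cover that choice. All 10 were positive, and 7 passed the threshold by Pearson's r and 6 by Spearman's rho; 9 of the pairs are given here. The RNA sensor pair Ifih1 and Ddx58 had r = 0.906 (exact permutation p = 0.00119, adjusted 0.00595) and rho = 0.893 (exact p = 0.0123, adjusted 0.0308). Ddx58 did not separate the labelled groups, and yet it varied with Ifih1 within one of them. Isg15 and Usp18, the modifier and its protease, had r = 0.917 (exact permutation p = 0.00377, adjusted 0.0126) and rho = 0.964 (exact p = 0.00278, adjusted 0.0139). Irf7 and Isg15 had r = 0.911 (exact permutation p = 0.00833, adjusted 0.0208) and rho = 0.893 (exact p = 0.0123, adjusted 0.0308). Parp9 and Dtx3l had r = 0.85 (exact permutation p = 0.0151, adjusted 0.0286) and rho = 0.857 (exact p = 0.0238, adjusted 0.0397).

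The remaining pairs were weaker. Isg15 and Ifit1 had r = 0.834 (exact permutation p = 0.0200, adjusted 0.0286) and rho = 0.857 (exact p = 0.0238, adjusted 0.0397). Mx1 and Mx2 had r = 0.828 (exact permutation p = 0.0200, adjusted 0.0286) and rho = 0.786 (exact p = 0.0480, adjusted 0.0686). Oas2 with Oas3 and Ifit1 with Ifit3 had r of 0.740 and 0.759 (exact permutation p of 0.0615 and 0.0464, adjusted 0.0683 and 0.0580) and rho of 0.750 and 0.643 (exact p of 0.0663 and 0.139, adjusted 0.0828 and 0.154). Rsad2 and Cmpk2, neighbours in the genome, had the lowest r, 0.627 (exact permutation p = 0.131), and a rho of 0.595 (exact p = 0.170). Without the 2 libraries farthest from the median of the first gene, r was 0.81 to 0.88 for Isg15 with Usp18, Ifih1 with Ddx58, Parp9 with Dtx3l and Mx1 with Mx2. It was 0.56 for Irf7 with Isg15, 0.62 for Isg15 with Ifit1 and 0.45 for Ifit1 with Ifit3, over 5 libraries with a narrower range. Each of the 6 pairs given as past the threshold lost its call when some 1 library was left out. Without MSTN+/- replicate 1, the adjusted p (exact permutation) was 0.108 for Parp9 with Dtx3l, 0.116 for Mx1 with Mx2, 0.149 for Isg15 with Ifit1 and 0.0972 for Irf7 with Isg15. Without replicate 4 it was 0.0583 for Isg15 with Usp18 and for Ifih1 with Ddx58.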

How the data were processed

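Groups were taken from the genotype label, and each column was tied to its library by the title in the column name; 0 columns of per-library values were left unused. The authors deposited 1 FPKM value per gene and library, rounded to 2 decimals, per the file headers; aligner and genome build: not given in the sources used here. Members, functional classes, pathway and marker lists, gene pairs and the rule for named genes were chosen with earlier results of these data known. That rule took the 2 most abundant members of each class (3 in classes of 6 or more) and every member that missed the threshold or was higher in 1 wild-type library than in the median MSTN+/- library, and from each pathway list the 3 with the smallest p. Genes at the ends of a range and other members singled out were named after their values were seen.

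All 10 libraries entered 1 limma model (version 3.58.1, R 4.3.3) of log2(FPKM + 1) with a mean-variance trend, no covariate and 8 residual degrees of freedom. It covered 14047 genes that reached 1 FPKM in 3 or more libraries, and Benjamini-Hochberg adjustment ran over all of them, with a threshold of 0.05. A fold change on this scale understates changes of low genes. FPKM is not a count, so no count test was run. Absolute depth is unknown; from single-fragment steps of low genes, relative depth was 1 to 1.21 times that of MSTN+/- replicate 1, which was taken as 1. FPKM totals were 402716 to 464418. Of the 91 pathway symbols, 76 had a row; 1 of these genes, though counted, is not reported here. Correlations used log2(FPKM + 1). The fit was tested on simulated data. Alternatives were another pseudocount, other filters and scalings, robust fits, library weights, wild-type replicate 1 as the only reference and leaving out each library. The fit with wild-type replicate 1 as the only reference holds no wild-type spread, so its changes are given without p. Figures were drawn with matplotlib 3.10.9.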

Additional observations from a re-analysis of the deposited data

Results flagged for a closer look

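In 62 genes, the 44 members and 18 named pathway genes, the highest and lowest of the 7 MSTN+/- libraries were compared with the spread of the others by Dixon's ratio, which chance exceeds in about 1 in 20 groups. The highest library stood apart for 4 genes. Ifi47 was at 45.99 FPKM and Trim30a at 42.95 FPKM in MSTN+/- replicate 1, with the next libraries at 33.4 and 34.3 FPKM. Oas1b was at 12.95 FPKM in replicate 7, with the next at 10.2 FPKM. Mavs was at 39.48 FPKM in replicate 6, with the next at 32.4 FPKM.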

How the results depend on the processing

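The count of members higher in MSTN+/- libraries was 40 to 44 over 19 alternatives, and it was 42 under median-of-ratios, TPM and quantile scaling, where 23.2%, 27.7% and 20.5% of all genes were higher and the median of all genes was -0.01, 0.15 and -0.10. It was 42 without wild-type replicate 1, where 42.2% of all genes were higher. The median log2 change of the members was 4.003 against wild-type replicate 1 alone, and 2.51 to 3.41 without any 1 library. Of 835 values of single members under these alternatives, 826 kept their direction and their side of the threshold, and 2 reversed: Ddx58 (-0.034) and Trim25 (-0.209) without wild-type replicate 1. Without wild-type replicate 2 they passed the threshold (1.26 and 1.36). Ptpn2 reversed against wild-type replicate 1 alone (0.035). Against that library alone, 17 members past the threshold moved by over 1.5 times, Ifit2 toward 0 and the others away from it, and 7 did so toward 0 without it: Ifitm1, Oas1a, Oas1b (1.25), Oas1g, Usp18, Bst2 and Dtx3l (1.15). Socs3 was at 0.72 without it and 1.89 against it alone. The count of correlated gene pairs past the threshold, 7, was 1 to 8 when 1 of the 7 libraries was left out, with 3 without replicate 1, 4 without replicate 3 and 1 without replicate 4, and 9 with median-of-ratios scaling; with 6 libraries the smallest p is higher. The library weights fit stopped before full convergence. No paired analysis was possible because the labels carry no replicate numbers. The depth of each library is unknown, so the counting error of levels near 0 could not be estimated.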
